A study of Caenorhabditis elegans with 8 samples.

Results

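The *clec* genes of *C. elegans* encode proteins with C-type lectin-like domains, and their transcripts were followed in embryos in which the Myt1 family zinc-finger gene *ztf-11* had been knocked down. Members were chosen by name alone, as every transcript whose gene symbol in the RefSeq gene table is *clec-* followed by a number. This gave 266 of the 50606 transcripts in the counts, from 233 genes, of which 17 have more than 1 transcript. The table lists 264 such genes, 239 protein-coding and 25 pseudogenes, and 31 of them, among them *clec-84*, *clec-85* and *clec-145*, had no transcript matched by accession and were not analysed here. No protein or promoter sequence of these genes was used here.

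RNA-seq libraries were made from whole embryos of strain TV23837. For this experiment the study describes RNAi-hypersensitive *eri-1(mg366)* animals that carry *ztf-11::gfp*, so both groups share these alleles. The 4 *ztf-11* knockdown (KD) libraries came from mothers fed for 64 hr at 20 °C, with 1 mM IPTG, on bacteria that express dsRNA against *ztf-11*, and the 4 control libraries from mothers fed bacteria with the empty vector L4440. Eggs were freed by bleaching and kept in M9 for 3 hr, and each library is an independent culture that pools whole embryos, which the study describes as gastrulae. Feeding RNAi is not restricted to 1 tissue of mother or embryo, and it lowers *ztf-11* without removing it.

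C-type lectin-like domains take their name from vertebrate lectins that bind sugars in the presence of calcium. In *C. elegans* the family has expanded far beyond its size in vertebrates, and many members are predicted to be secreted. Many are known from the intestine, where infection by bacteria changes their transcription, and some have been tied by mutants to survival on pathogens or to avoiding them. A few have roles outside immunity, such as *clec-38*, which modulates axon guidance by the netrin receptor UNC-40.

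The libraries held 39343105 to 45609675 counts each. Levels are given as CPM, the counts per 1000000 counts of a library after scaling by edgeR's TMM method. *ztf-11* itself had values of 36.6, 68.4, 31.2 and 40.9 CPM in controls 1 to 4 and of 9.42, 10.96, 14.7 and 9.98 CPM in KD replicates 1 to 4, so the libraries matched their labels. Of the marker lists, the intestine list had counts in every library, although 1 or 2 of its 10 genes were at 0 in each. *elt-2*, the GATA factor of the intestine, was at 67.5 ± 6.08 CPM in control and 67.3 ± 1.19 CPM in KD embryos (SD, n = 4 each). Sperm genes summed to at most 0.886 CPM and yolk protein genes, 4 of 6 matched, to at most 1.19 CPM in any library, although *elt-1* and *elt-3*, which embryonic epidermis uses, were also at 0 in these counts per transcript, so that a low value need not mean that a gene is not expressed. Control replicate 2 and KD replicate 3 stood low in their groups, and control replicate 3 stood high in its group, for summed intestinal, pharyngeal and body wall muscle genes alike, and the values for these libraries are given beside the results they touch.

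Few members carried most of the *clec* reads in these embryos. Of the 266 transcripts, 69 had no count in any library, 92 had between 1 count in all and a mean below 10, 105 had a mean of 10 or more, and 19 had a mean of 1000 or more. As for *elt-1* and *elt-3*, a transcript without counts need not mean that its gene is not expressed. For the 17 genes with more than 1 transcript, how shared reads were counted is not given in the sources used here. *clec-78* alone took 28.7% of all *clec* counts, the first 4 members 65.5% and the first 10 members 82.8%. Together the members took 2332 to 2836 per 1000000 counts in control and 2609 to 3509 in KD libraries, so the groups overlapped.

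The 6 members with the most reads fell into contrasting patterns over the libraries. *clec-78* was at 859, 831, 618 and 957 CPM in control replicates 1 to 4 and at 875, 803, 1018 and 694 CPM in KD replicates 1 to 4, with no difference beyond the spread (log2 fold change, log2 FC, of KD over control 0.054, SE 0.16). *clec-87* stood at 423, 1228, 540 and 483 CPM in control and at 469, 448, 513 and 262 CPM in KD embryos. Its highest library was control replicate 2, by more than 2-fold over every other library, and without that library the log2 FC moved from -0.66 to -0.20. *clec-91*, at 99.3, 290, 136 and 124 CPM in control and 118, 104, 115 and 73.2 CPM in KD embryos, had its highest value in the same library, and so had *clec-196*, whose reads all fell on 1 of its 3 transcripts, at 80.2, 162, 77.5 and 105 CPM in control and 75.8, 70.1, 105 and 73.1 CPM in KD embryos. Without control replicate 2 their log2 FCs moved from -0.66 to -0.23 and from -0.39 to -0.13. Summed germ line and maternal genes, 7 of 8 matched, were also highest in control replicate 2, at 699 CPM against 299 to 406 CPM in the other controls and 261 to 388 CPM in KD libraries, and their part in these values was not tested.

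**Figure D1:**
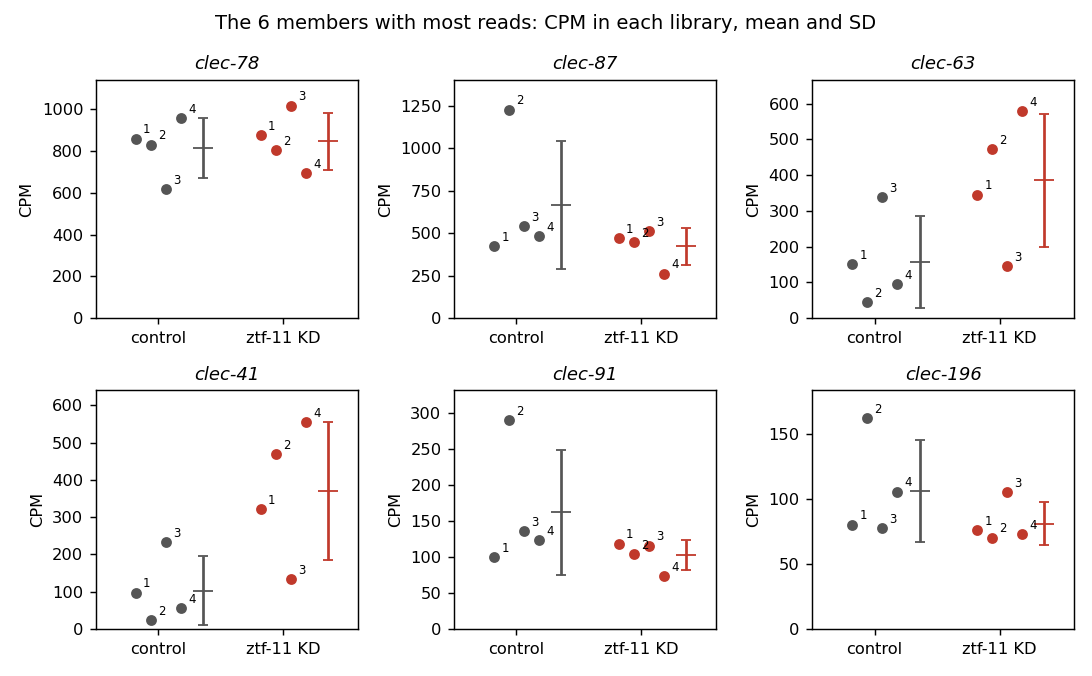
CPM (vertical axis, from 0) of the 6 *clec* transcripts with the most reads in the 4 control (grey) and 4 KD (red) libraries, numbered by replicate, with the mean and SD of each group as a bar. *clec-87*, *clec-91* and *clec-196* peak in control replicate 2, the library in which *clec-63* and *clec-41* are lowest.

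*clec-63* and *clec-41* ran the other way. *clec-63* stood at 152, 44.3, 339 and 95.8 CPM in control and at 345, 473, 145 and 579 CPM in KD embryos, and *clec-41* at 97.8, 24.0, 233 and 55.2 CPM and at 321, 469, 133 and 555 CPM. For both, control replicate 2 was the lowest and control replicate 3 lay above KD replicate 3, so the groups overlapped. When levels were divided by the coding length in the Ensembl annotation, the order changed. *clec-87* led with 781 CPM per kb of coding sequence over the 8 libraries, followed by *clec-63* with 220, *clec-196* with 204, *clec-91* with 196.3 and *clec-41* with 144, and *clec-78*, with a coding length of 10542 bases, stood at 78.9 CPM per kb. *clec-87* led in both groups, at 956 CPM per kb in control and 605 in KD embryos, but the order of the group means behind it turned. In mean CPM per kb of coding sequence, *clec-91* (240.3) and *clec-196* (232) stood above *clec-63* (128) and *clec-41* (62.7) in control. In KD embryos *clec-63* (313) and *clec-41* (226) stood above *clec-196* (177) and *clec-91* (152). Single libraries did not all keep these orders. On this scale *clec-63* stood above *clec-91* and *clec-196* in control replicate 3. In KD replicate 3 *clec-196* and *clec-91* stood above *clec-63* and *clec-41*. In the current annotation the span of *clec-78* overlaps 7 other genes, that of *clec-87* overlaps *iars-2* and that of *clec-91* overlaps *ZK858.8*. Exons and strands were not compared, and the strand setting of the counting is not given. Whether such pairs share reads was not tested.

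The comparison of KD with control embryos asks which transcripts differ, directly or indirectly, when ZTF-11 is reduced. More of the *clec* transcripts were higher than lower in KD embryos. Of the 97 with enough counts to be tested, 1 per gene, 67 (69.1%) were higher and 30 were lower, where 49.2% of all 14328 transcripts tested were higher. Their median log2 FC was 0.48 (quartiles -0.11 and 1.102), against -0.0088 (quartiles -0.28 and 0.38) over all transcripts. A log2 FC above 1 was found in 29 members (29.9%, against 9.45% of all transcripts) and one below -1 in 4 members (4.12%, against 2.08%).

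None of these differences passed the threshold in edgeR's quasi-likelihood test, which called 0 members at an adjusted p under 0.1 (Benjamini-Hochberg over all transcripts). It called 0% of all transcripts as well. At an unadjusted p under 0.05 in the same test, 18 members (18.6%) were higher, against 8.8% of all transcripts, and 1 member was lower (1.03%), against 3.99%. DESeq2, the tool the study used, called 10 of the 127 members it adjusted as higher (7.87%, against 2.45% of all transcripts) and 1 as lower (0.787%, against 0.311%). edgeR's likelihood ratio test called 8 of 97 higher (8.25%, against 1.65%) and 0 lower (0.154%). Leaving out control replicate 3 or KD replicate 3 raised the 18 members to 29 of 101 and 28 of 111 tested. The share of all transcripts at that unadjusted p was not computed with a library left out. The calls of DESeq2 rose from 10 members to 26 and 20 in these fits. Over all transcripts, higher and lower together, the calls of DESeq2 rose from 444 to 1685 and 1139 in the same fits. Leaving out KD replicate 2 or 4 lowered the 18 to 10 of 105 and 10 of 99 tested, and the calls of DESeq2 to 6 and 4. Over all transcripts its calls fell to 68 and 128. Without control replicate 4 DESeq2 called 5 members higher and 106 transcripts in all, and without KD replicate 1 it called 5 and 125.

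**Figure D2:**
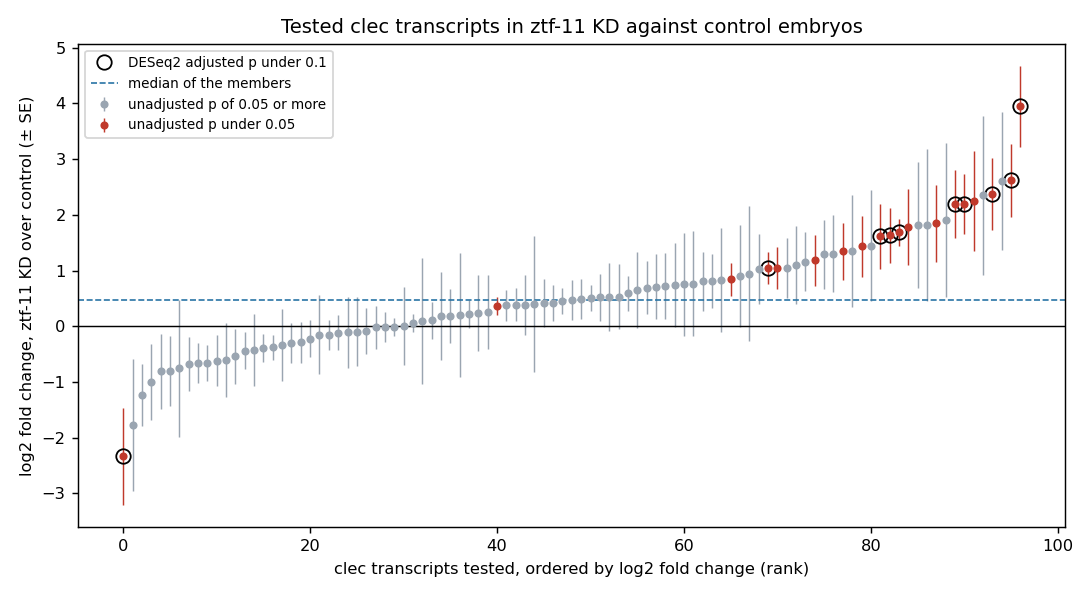
Log2 FC with its standard error (vertical axis) of the 97 *clec* transcripts tested, ordered by that value (horizontal axis, rank), with the 18 higher and 1 lower at an unadjusted p under 0.05 in red and DESeq2's calls at an adjusted p under 0.1 circled. The dashed line marks the median of 0.48, and 67 of the 97 lie above 0.

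*clec-4* and *clec-71* were the members with the smallest p values. *clec-4*, which a mutant has tied to the response of *C. elegans* to pathogenic *Bacillus thuringiensis*, stood at 15.2, 8.44, 13.7 and 9.61 CPM in control and at 37.7, 45.3, 27.4 and 40.8 CPM in KD replicates 1 to 4. All 4 KD libraries lay above all 4 controls. The means were 11.7 ± 3.22 and 37.8 ± 7.57 CPM (SD, n = 4 each). A two-sided exact permutation test gave p = 0.0286, which no comparison of 4 with 4 libraries can go below. The log2 FC of *clec-4* was 1.69 (SE 0.24, adjusted p = 0.262 in edgeR's quasi-likelihood test, 8.1e-07 in DESeq2). It ranked 2 by p among all transcripts, next to *ztf-11* itself, and its log2 FC stayed between 1.54 and 1.84 with any 1 library left out. Over the alternatives its adjusted p ran from 8.1e-07 to 0.706, and edgeR called it without the filter on low counts (adjusted p = 0.0090).

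*clec-71*, a gene of the response to infection by *Staphylococcus aureus*, was close to absent from control embryos. It had 2, 2, 13 and 7 counts in control and 79, 137, 31 and 120 counts in KD replicates 1 to 4, or 0.0437, 0.0474, 0.288 and 0.173 CPM against 2.02, 3.23, 0.775 and 2.66 CPM. Again no KD library reached down to a control, and KD replicate 3 was the lowest of its group (exact permutation test, two-sided, p = 0.0286). The log2 FC was 3.95 (SE 0.73, adjusted p = 0.359 in edgeR's quasi-likelihood test, 9.6e-06 in DESeq2), the highest among the 97. It stayed between 3.65 and 4.58 with any 1 library left out. The adjusted p stayed between 9.6e-06 and 0.706 over the alternatives that tested it, with 0.076 in edgeR without the filter. With 2, 2 and 7 counts in control replicates 1, 2 and 4, *clec-71* passed the filter on low counts through its KD libraries. It was not tested where at least 10 counts in every library were required. With so few reads in the controls the size of the ratio is imprecise.

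The groups did not overlap, with every KD library above every control, for 7 members in all (7.22%, against 3.61% of all transcripts), and with every one below for 2 (2.06%, against 2.46%). The other 5 higher ones were *clec-174*, *clec-66*, *clec-76*, *clec-33* and *clec-21*. *clec-174* stood at 2.12, 0.593, 3.63 and 1.73 CPM in control and at 8.60, 14.2, 4.00 and 10.2 CPM in KD embryos, with a log2 FC of 2.19 (SE 0.54). *clec-66* stood at 33.5, 12.3, 34.3 and 25.3 CPM and at 58.5, 57.0, 43.5 and 57.6 CPM, with a log2 FC of 1.04 (0.29). *clec-76*, at a mean of 38.1 counts per library, had a log2 FC of 2.37 (0.65), *clec-33* one of 0.84 (0.30) and *clec-21*, at 18.6 counts, one of 2.25 (0.90). For these 5, KD replicate 3 was the lowest of its group for *clec-174*, *clec-66* and *clec-33*. DESeq2 called *clec-174*, *clec-66* and *clec-76* and did not call *clec-33* or *clec-21*. Of the 7 members, *clec-71*, *clec-76* and *clec-21* were not tested where at least 10 counts in every library were required. The 7.22% therefore depends on the filter on low counts.

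**Figure D3:**
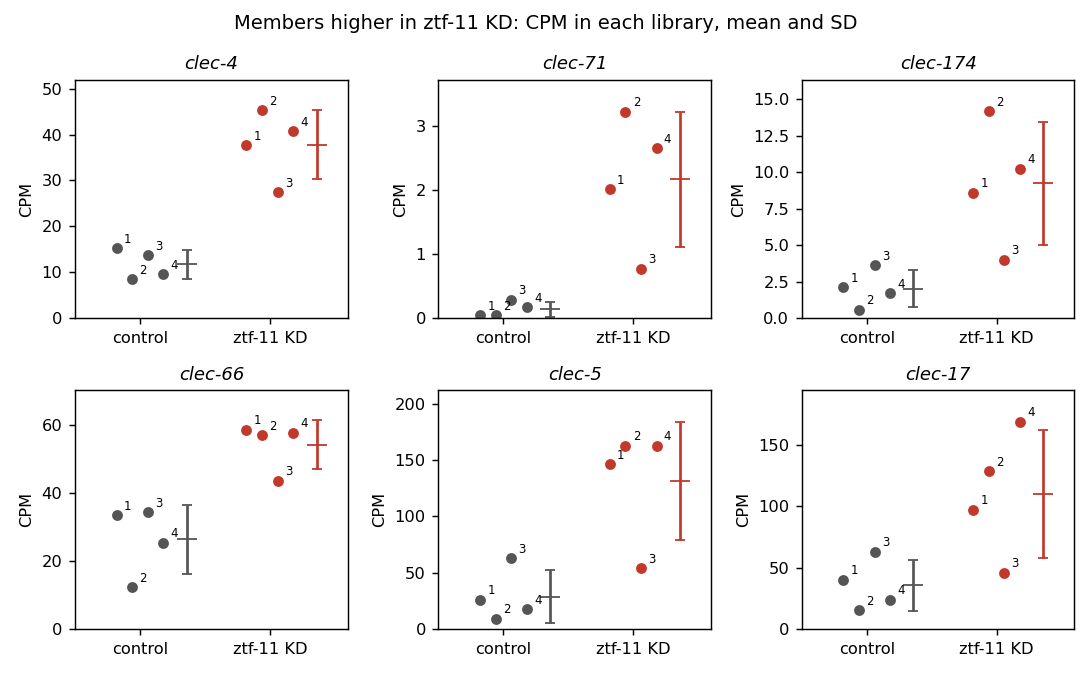
CPM (vertical axis, from 0) of *clec-4*, *clec-71*, *clec-174*, *clec-66*, *clec-5* and *clec-17* in each control (grey) and KD (red) library, numbered by replicate, with the mean and SD of each group as a bar. The groups are apart for the first 4 genes, and for *clec-5* and *clec-17* control replicate 3 lies above KD replicate 3.

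The other members that DESeq2 called higher overlapped between groups, each through control replicate 3 and KD replicate 3 or a library with hardly any reads. *clec-5* stood at 25.9, 8.96, 62.97 and 17.4 CPM in control and at 146, 163, 54.02 and 163 CPM in KD embryos, with a log2 FC of 2.19 (SE 0.61). *clec-17*, a gene of the response to the rectal pathogen *Microbacterium nematophilum*, stood at 40.1, 15.5, 63.2 and 23.8 CPM and at 97.4, 129, 45.8 and 169 CPM, with a log2 FC of 1.63 (0.50). Both were higher in KD replicates 1, 2 and 4 than in any control. *clec-67* ran from 3.87 to 33.4 CPM in control and from 23.5 to 66.3 CPM in KD embryos, with a log2 FC of 1.62 (0.58). *clec-163* had means of 0.426 ± 0.243 and 2.63 ± 1.72 CPM and a log2 FC of 2.62 (0.65). *clec-224* had 0, 0, 2 and 0 counts in control and 16, 21, 0 and 32 counts in KD libraries, too few for edgeR's filter.

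The remaining members at an unadjusted p under 0.05 in edgeR were called by neither DESeq2 nor the likelihood ratio test. *clec-41* and *clec-42*, which like *clec-4* have been tied by mutants to the response to *B. thuringiensis*, had log2 FCs of 1.85 (SE 0.69) and 1.35 (0.51). For *clec-42* the values were 5.07, 2.94, 12.1 and 5.06 CPM in control and 15.03, 22.9, 5.55 and 20.5 CPM in KD embryos. *clec-65* had a log2 FC of 1.78 (0.68), *clec-72* of 1.43 (0.55), *clec-10* of 1.18 (0.46), *clec-149* of 1.04 (0.38) and *clec-264*, which overlaps *fkb-6*, of 0.37 (0.16). *clec-63* had one of 1.29 (0.63) and an unadjusted p of 0.0715.

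The lower members were fewer, and those furthest down were rare transcripts. *clec-210* had 83, 27, 83 and 29 counts in control and 0, 14, 10 and 18 counts in KD libraries, all below the controls after scaling, with a log2 FC of -2.34 (SE 0.87; adjusted p = 0.383 in edgeR's quasi-likelihood test, 0.089 in DESeq2, and up to 0.706 over the alternatives). Its span overlaps that of the chemoreceptor gene *srt-56*, and whether the 2 genes share reads was not tested. *clec-123*, the other member whose groups did not overlap, had 39, 42, 86 and 43 counts and 6, 29, 24 and 27 counts and a log2 FC of -1.24 (0.56). *clec-29* had 25, 21, 20 and 7 counts in control and 2, 18, 0 and 0 counts in KD libraries, so that its log2 FC of -1.78 (1.18) was not beyond the spread.

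Of the other members with a known role, the axon guidance gene *clec-38* averaged 15.4 counts and had a log2 FC of 0.74 (SE 0.75). *clec-39* and *clec-49*, both needed for resistance to *Serratia marcescens*, had means of 11.8 and 19.4 counts and log2 FCs of 0.20 (1.12) and -0.34 (0.64). *clec-52*, a gene of the response to *S. aureus*, had 38, 5, 120 and 15 counts in control and 51, 93, 0 and 188 counts in KD libraries, and a log2 FC of 0.94 (1.21). *clec-86*, tied like *clec-17* to *M. nematophilum*, had a log2 FC of 1.04 (0.53), and it overlaps *alh-10*. *clec-60*, tied to the responses to both pathogens, had a mean of 1.38 counts and could not be tested. None of the 5 tested reached an unadjusted p under 0.05, and their standard errors leave room for differences in either direction.

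Many *clec* genes lie side by side in the genome, and neighbours were compared with one another. Runs were defined as *clec* genes of 1 chromosome with at most 5 other genes between them, in the order of the current assembly. The run on chromosome IV from *clec-67* to *clec-78* has 14 genes, which hold *clec-71*, *clec-174*, *clec-67* and *clec-76*. Of its 12 transcripts in the counts 8 were tested, with a median log2 FC of 1.52. At an unadjusted p under 0.05, 5 of the 8 were higher, against 18.6% of all *clec* and 8.8% of all transcripts tested. All 8 values were above 0, but that of *clec-78*, 0.054, was within its spread and changed sign when control replicate 3 (-0.075) or KD replicate 3 (-0.047) was left out. Within the run the values reached from 0.054 for *clec-78* and 0.52 for *clec-75* to 3.95 for *clec-71*, and *clec-70*, which lies next to *clec-71*, had only 3.13 counts per library. In the run from *clec-62* to *clec-66* on chromosome II 3 transcripts were tested, *clec-63*, *clec-65* and *clec-66*, all higher, with a median of 1.29. In the run from *clec-165* to *clec-170* on chromosome IV 5 were tested, all higher, with a median of 0.49 and 0 at an unadjusted p under 0.05. The run from *clec-40* to *clec-33* on chromosome V, with 15 genes, had 4 of 8 tested transcripts higher and 4 lower, with a median of 0.0063. *clec-8*, next to *clec-4* on chromosome II, had a log2 FC of 0.81 (SE 0.49).

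**Figure D4:**
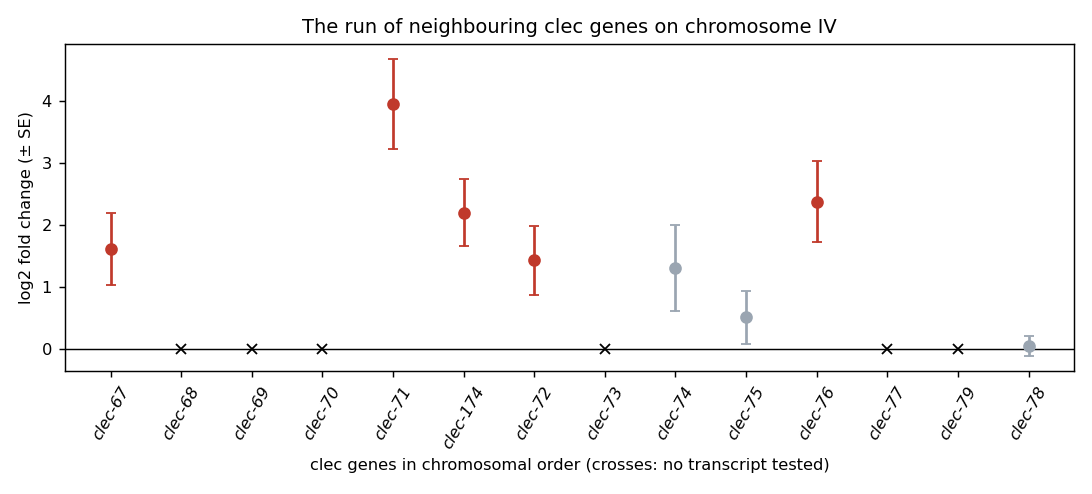
Log2 FC with its standard error (vertical axis) of the *clec* genes in the run on chromosome IV, in chromosomal order (horizontal axis), in red at an unadjusted p under 0.05 and in grey otherwise. Crosses mark 6 genes with no transcript tested, and *clec-71* has the highest value, 3.95.

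Members with a *clec* neighbour were also set beside those without, and chromosomes beside each other, as a description with no test. The 64 tested transcripts in runs had a median log2 FC of 0.52, with 13 higher at an unadjusted p under 0.05, and the 33 others one of 0.37, with 5 higher, where the share at that p was 18.6% over all *clec* and 8.8% over all transcripts tested. By chromosome the median ran from -0.083 over 10 transcripts on chromosome I to 1.04 over 7 on chromosome III and 1.04 over 3 on chromosome X, with 0.82 over 16 on chromosome II, 0.52 over 24 on chromosome IV and 0.37 over 37 on chromosome V. Neighbours of recent origin can share sequence, and only reads that map to 1 place were counted, so members of such runs are measured by their unique parts.

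The same libraries stood low or high for many of the members. Of the 97 tested, 53 had their lowest control value in control replicate 2 and 51 their highest in control replicate 3. KD replicate 3 held the lowest KD value for 52 of the 97 and lay below control replicate 3 for 63. Of the 18 higher at an unadjusted p under 0.05, these numbers were 14, 13, 16 and 10. The intestine list had the same low and high libraries, with all 10 of its genes matched and at most 2 of them at 0 in a library. It summed to 2661, 1290, 3208 and 2094 CPM in control replicates 1 to 4 and to 4004, 5106, 2439 and 5032 CPM in KD replicates 1 to 4. Most of this was *act-5*, the actin of intestinal microvilli, at 973 ± 395 CPM in control and 2116 ± 662 in KD embryos, and *asp-1*, an intestinal aspartic protease, at 983 ± 413 and 1625 ± 571 CPM (SD, n = 4 each). *elt-2* did not follow this order, and the gut esterase *ges-1* was at 44.1 ± 2.34 and 42.6 ± 2.24 CPM. The log2 FC was above 0 for 5 of the 9 genes tested and below 0 for 4, with a median of 0.25. At an unadjusted p under 0.05 in edgeR, 2 of the 9 were higher, *act-5* and *ifb-2*, against 8.8% of all transcripts tested. *ifb-2* was rare, with a mean of 16.5 counts per library, and its groups overlapped. It had means of 0.094 CPM in control and 0.69 CPM in KD embryos. DESeq2 called 1 gene of the list, *act-5*, as higher (adjusted p = 0.060), where it called 2.45% of all transcripts higher. In whole embryos fewer cells of a type and less RNA per cell cannot be told apart. Summed pharyngeal genes, 5 of 5 matched, followed the same order in controls, at 185 CPM in control replicate 2, 742 in control replicate 3 and 445 in KD replicate 3, with 304 to 352 in the other controls and 926 to 1675 in the other KD libraries. Summed body wall muscle genes, 4 of 5 matched, had the same low and high libraries, at 1769 to 3342 CPM in control and 2907 to 6250 CPM in KD embryos. The myosin genes *unc-54* of body wall muscle (log2 FC 1.02, SE 0.30) and *myo-1* of the pharynx (1.61, SE 0.50) were both called higher by DESeq2. All 6 germ line and maternal genes tested had log2 FCs below 0 (median -0.41), with 0 at an unadjusted p under 0.05. Of 3 endoderm specification genes tested 2 were lower and 1 higher (median -0.54), and they summed to 9.22 to 12.8 CPM in all libraries but control replicate 2, which had 31.4 CPM. Epidermal genes had a median of -0.028 over the 3 tested. The part of embryonic age or tissue content in the *clec* differences was not tested.

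After these values were seen, 9 members were also expressed per 1000 CPM of the intestine list in the same library. *clec-4* then stood at 5.71, 6.55, 4.27 and 4.59 in control and at 9.41, 8.87, 11.3 and 8.10 in KD replicates 1 to 4. The groups stayed apart, and KD replicate 3, its lowest library in CPM, became the highest of its group, with a log2 difference of 0.84 in place of 1.69 (exact permutation test, two-sided, p = 0.0286). *clec-71* stood at 0.0164, 0.0368, 0.0898 and 0.0826 and at 0.503, 0.632, 0.318 and 0.528, a log2 difference of 3.08. *clec-5*, which had overlapped in CPM, stood at 6.95 to 19.6 in control and at 22.1 to 36.6 in KD embryos (log2 difference 1.56), and *clec-174* at 0.460 to 1.13 and 1.64 to 2.78 (1.45). For these 4 the exact p was 0.0286, before any adjustment for the 9 ratios computed. *clec-66*, apart in CPM, overlapped on this scale, at 9.54 to 12.6 and 11.2 to 17.9, with a log2 difference of 0.28 (exact permutation p = 0.229). *clec-63* overlapped too, with 0.63 (p = 0.171, exact), as did *clec-67* with 1.04 (p = 0.0857, exact), *clec-41* with 1.27 and *clec-17* with 0.81 (p = 0.0571 each, exact).

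**Figure D5:**
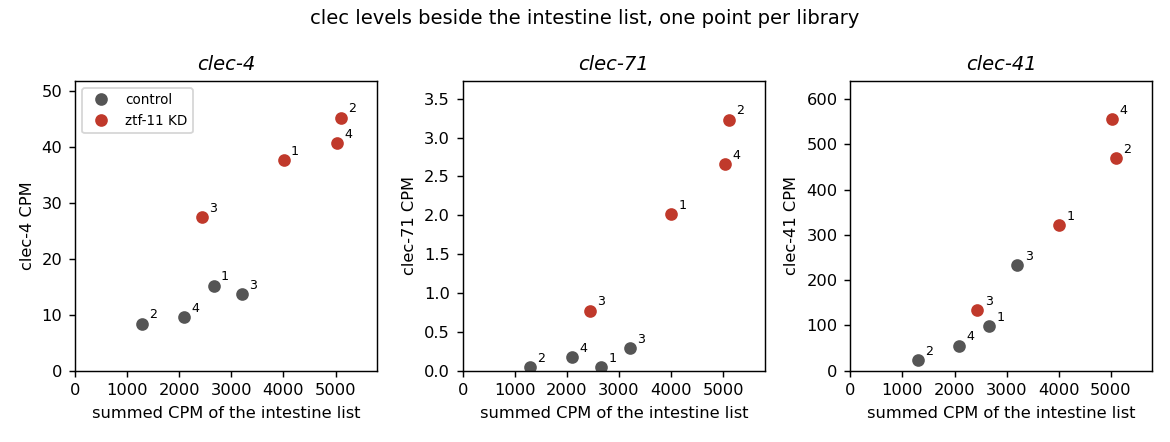
CPM of *clec-4*, *clec-71* and *clec-41* (vertical axes) against the summed CPM of the intestine list (horizontal axis) in each control (grey) and KD (red) library, numbered by replicate. For *clec-4* and *clec-71*, KD replicate 3, at 2439 CPM of the intestine list, lies above control replicates 1 and 3, at 2661 and 3208, and for *clec-41* it lies between them.

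Other genes of intestinal and epidermal immunity were read from the same fit. Of 20 genes of immune signalling and its regulators 17 were matched and 13 tested, 10 higher and 3 lower in KD, and the median log2 FC was 0.13. At an unadjusted p under 0.05, where 8.8% of all transcripts tested were higher, 3 of the 13 were higher, namely *dbl-1*, a TGF-beta ligand, with 0.93 (SE 0.27), *bar-1*, a beta-catenin, with 0.49 (0.18), and *sek-1*, a kinase upstream of the p38 kinase PMK-1, with 0.30 (0.13). *pmk-1* itself had a log2 FC of 0.11 (0.13). Of 40 genes of secreted immune effectors other than lectins 39 were matched and 25 tested, 20 higher and 5 lower, with a median of 0.70. The 5 of 25 at an unadjusted p under 0.05, all higher, against the same 8.8%, were the lysozyme genes *lys-1*, *lys-2* and *lys-3*, the antibacterial factor gene *abf-2* and the caenacin gene *cnc-4*. *lys-1* stood at 118, 40.3, 258 and 80.2 CPM in control and at 543, 640, 238 and 627 CPM in KD embryos, with the overlap of control replicate 3 and KD replicate 3 also seen for *clec-5*. *lys-2*, at 13.7, 11.1, 16.6 and 13.9 CPM and 33.7, 31.8, 20.4 and 28.8 CPM, did not overlap. The quasi-likelihood test called none of the genes on these immune lists. DESeq2, which called 2.45% of all transcripts higher, called *lys-1*, *lys-2*, *lys-3* and *dbl-1*, and the likelihood ratio test called the 3 lysozyme genes.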

How the data were processed

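RNA was sequenced from 4 *ztf-11* KD and 4 control embryo cultures. The authors trimmed reads with fastx and used TopHat2 for mapping to *ce10*. Their deposited files give raw counts of uniquely mapped reads per RefSeq transcript, made by featureCounts. Versions and the strand setting are not given in the sources used here. Transcripts were named from the RefSeq table of WBcel235, and 45715 of 50606 matched. Coordinates of that table were used only for the order of genes and for the overlap of gene spans. Coding lengths are from the Ensembl annotation of WBcel235.

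Counts were filtered with filterByExpr (minimum 10), normalised by TMM and put through the quasi-likelihood functions glmQLFit (robust) and glmQLFTest of edgeR 4.0.16 (R 4.3.3), with the condition as the only term. A standard error (SE) is the estimated log2 FC over the root of its F statistic. The threshold was an adjusted p under 0.1. Exact tests used the 70 assignments of libraries to groups, on log2(CPM + 0.05), or log2(ratio + 0.01) for levels relative to the intestine list. The tests were tested on simulated data. Alternatives were DESeq2 1.42.0, the likelihood ratio test, other scalings and filters, sums per gene, a replicate block and each library left out.

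The members, gene lists and rule for naming genes were chosen with earlier results of these data known. Named are *ztf-11*, *clec-4*, *clec-71*, members at an unadjusted p under 0.05 in edgeR or called by DESeq2, the 6 with most reads, the 3 largest decreases and those with a known role. Other members named were chosen after their values were seen. Libraries of a group differed by 25.2 to 211 times the sampling noise (chi-square per degree of freedom over transcripts), so none was counted as a repeat of another.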

Additional observations from a re-analysis of the deposited data

Results flagged for a closer look

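In 68 groups of 4 libraries, made of the named members and *ztf-11*, 11 held a library far from the other 3. The rule used would flag about 5% of groups of independent values with a normal spread. These groups share the same libraries and most members were named from these data, so the 11 cannot be set against that 5%. KD replicate 3 stood below the rest of its group for *clec-66* (43.5 CPM against 57.0 to 58.5), for *clec-5* (54.02 CPM against 146 to 163) and for *clec-10* (9.07 CPM against 21.3 to 23.4), and above it for *clec-196* (105 CPM against 70.1 to 75.8). Control replicate 2 stood above the other controls for *clec-87*, at 1228 CPM against 423 to 540. Control replicate 3 stood above them for *clec-149*, at 9.53 CPM against 3.85 to 4.39.

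The other flags concern rare transcripts. *clec-123* was at 0.153 CPM in KD replicate 1 against 0.598 to 0.683, and *clec-29* at 0.424 CPM in KD replicate 2 against 0 to 0.051. In control replicate 2 *clec-39* had no counts (0 CPM), against 0.321 to 0.371 CPM. In control replicate 1 *clec-60* had none either (0 CPM), against 0.0443 to 0.0494 CPM, and control replicate 3 alone held *clec-224* among controls, at 0.0443 CPM.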

How the results depend on the processing

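Of the 31 named members tested, 28 kept the sign of their log2 fold change under every alternative that tested them. The exceptions were *clec-39*, at -0.33 with the replicate block and -0.62 to 0.58 with 1 library left out, *clec-38* (-0.024 to 1.08) and *clec-78* (-0.075 to 0.14). Many of the 31 were named for small p values in these libraries, which the alternatives fit again, so a kept sign is no independent support. The 0 members and 0 transcripts called by edgeR's quasi-likelihood test became 2 higher members and 6 transcripts without the filter on low counts, 8 and 259 in the likelihood ratio test, and 10 higher members, 1 lower member and 444 transcripts in DESeq2. They remained 0 members with any 1 library left out, with 0 to 3 transcripts in all. The 18 members higher at an unadjusted p under 0.05 ranged from 10 to 29 with 1 library left out, and the single lower member from 0 to 4. The share of all transcripts at that p was computed only in the main fit. With at least 10 counts in every library, 61 members were tested and 13 were higher at that p. This setting left out *clec-71*, *clec-76*, *clec-163*, *clec-21* and *clec-210*, among others. The lower member became 2 in the likelihood ratio test, with DESeq2's size factors and with library totals, 3 in DESeq2 and without the filter, and 0 with at least 10 counts in every library. The median log2 fold change of the members lay between 0.36 and 0.58 throughout. DESeq2, with 1 library left out, an alternative chosen after the data were seen, called 4 to 26 members higher and 68 to 1685 transcripts in all. Why the tools differ was not tested.

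With the replicate number as a block, 9 of the 97 members tested were higher and 0 lower at an unadjusted p under 0.05. The share of all transcripts at that p was not computed with the block, so the 9 cannot be set beside it. At an adjusted p under 0.1, 0 transcripts were called. The deviations of same-numbered libraries from their group means correlated at 0.0052, -0.30, -0.64 and -0.21, and no library correlated best with its own number. These correlations cannot show whether same-numbered libraries were grown or handled together. The searches for motifs in promoters and proteins were not run.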
